A study of Homo sapiens with 8 samples.

Results

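The subunits described here are those of the mitochondrial respiratory chain and of the ATP synthase that are encoded in the nucleus. Members were taken by symbol, from the probe sets that the platform annotation gives 1 gene symbol: symbols starting NDUFA, NDUFB, NDUFC, NDUFS or NDUFV (but not NDUFAF), SDHA to SDHD, CYC1, and symbols starting UQCR, COX4I, COX5, COX6, COX7 or ATP5. The rule used no measured value. It gave 82 genes with 184 probe sets, of 18239 genes with 45253 probe sets in all. Complex I had 36 of the genes, complex II 3, complex III 9, complex IV 15 and complex V, the ATP synthase, 19. SDHB, UQCRFS1 and the subunits encoded in mitochondrial DNA were not analysed here. NDUFA4, a complex IV protein once assigned to complex I, is listed under the symbol COXFA4 and therefore lies outside the rule, with its paralogues COXFA4L2 and COXFA4L3 (C15orf48).

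The study profiled NS-SV-AC cells, a line of immortalized human salivary gland acinar cells, on 8 one-colour expression arrays. Cells given tumour necrosis factor alpha (TNF) at 20 ng/ml were collected after 2, 6, 12 and 24 h, and cells given bovine serum albumin (BSA) were collected at the same 4 times. Each treatment and time had 1 array, so a single time gives a difference with no test. The tests over several times measure the spread of the difference between times, and nothing in the labels says that the times came from separate cultures. All cells are of 1 line. Values are log2 signals of the array, and a difference of 1 on this scale is 2-fold. Each gene is given by its brightest probe set, judged by the average of all 8 arrays.

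Complex I takes electrons from NADH and complex II, which is also an enzyme of the citric acid cycle, takes them from succinate. Complex III passes them on to cytochrome c, complex IV hands them to oxygen, and the ATP synthase uses the proton gradient that complexes I, III and IV build to make ATP. Salivary acinar cells secrete fluid by ion pumping, which is paid for with ATP. Promoters of the nuclear genes of this machinery are known for sites of NRF1, of the ETS factor GABP and of YY1, and the coactivator PPARGC1A (PGC-1alpha) acts through such factors.

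The start regions of the members are shown here because members of all 5 complexes shift the same way in the results below. RefSeq (GRCh38.p14) start windows, of 250 bases before and 50 after the start, matched 66 of the 82 members by symbol, and 9 of these with several starts were left out of the counts. Letters were searched on both strands in the other 57 windows and in 22114 windows of all genes with 1 window. CCGGAAG, the core of an ETS (GABP) site, lay in 16 of 57 member windows (28.1%) and in 10.7% of all windows. GCGCANGCG, from the NRF1 site, lay in 19 of 57 (33.3%), against 8.04% of all windows. AAGATGGC, from the YY1 site, lay in 9 of 57 (15.8%), against 3.12% of all windows. At least 1 of the 3 was in 35 of 57 member windows (61.4%), against 19.4% of all windows. GGGANNTTC, most of an NF-kB site, lay in 4 of 57 (7.02%), against 4.27% of all windows. No match of one motif overlapped a match of another in these 57 windows. Such a match is a run of letters, not a measured binding site. Whether a match goes with the TNF difference of a gene was not tested.

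3 upstream stretches show these letters in members chosen for having matches and some of the larger differences given below. No match was found for NDUFB10, NDUFB5, NDUFV1, NDUFV3, NDUFS8 or NDUFB11, which also had larger differences. Whether each of these had a counted window is not given here. The stretches therefore do not show that matches go with larger differences. Capitals mark the matches, each stretch reads 5′ to 3′ on the gene's own strand and ends 1 base before the start. In SDHA the NRF1 letters come 4 times, each 49 bases after the last, at -166, -117, -68 and -19 from the start. In NDUFS3 the ETS letters come on the gene's strand at -83 and on the other strand at -102. In NDUFS7 the capitals at -102 are the NF-kB letters and those at -74 the NRF1 letters, both read on the other strand.
SDHA (chr5:218140-218319, plus strand): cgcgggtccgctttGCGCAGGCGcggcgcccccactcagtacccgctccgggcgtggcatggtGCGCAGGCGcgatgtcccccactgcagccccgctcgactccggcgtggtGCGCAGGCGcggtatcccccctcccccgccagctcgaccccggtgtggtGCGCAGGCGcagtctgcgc
NDUFS3 (chr11:47578954-47579073, plus strand): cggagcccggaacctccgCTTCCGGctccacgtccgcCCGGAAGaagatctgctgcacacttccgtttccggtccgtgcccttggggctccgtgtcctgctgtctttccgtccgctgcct
NDUFS7 (chr19:1383797-1383906, plus strand): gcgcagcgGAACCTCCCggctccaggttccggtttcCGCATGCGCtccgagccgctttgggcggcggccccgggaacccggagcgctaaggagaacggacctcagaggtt

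The YY1 letters sat after the start. Of 9 matches in the members, 8 were on the gene's own strand and began between bases 11 and 39 of the transcript. The letters hold an ATG, and whether it is the first codon was not looked up. 4 of these sites are shown with 10 bases on either side.
NDUFS7 (chr19:1383914-1383941, plus strand): ggccgaggccAAGATGGCggtgctgtca
NDUFS4 (chr5:53560650-53560677, plus strand): tgcctgcagcAAGATGGCggcggtgtca
NDUFA7 (chr19:8321344-8321371, minus strand): tcgcggacggAAGATGGCgtccgccacc
UQCRC1 (chr3:48609606-48609633, minus strand): ctgcagctggAAGATGGCggcgtccgtg

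The TNF array of 24 h stood apart from the other 7. Its control probes for GAPDH were brighter at the 3′ than at the 5′ end by 6.28 on the log2 scale, where the remaining arrays had gaps of 0.20 to 0.37. For ACTB this gap was 6.88, and 2.59 to 3.47 elsewhere. Results are therefore given with the 24 h pair and without it. Of the fixed markers, KRT18 and KRT8 of simple epithelia had mean log2 signals of 9.76 and 7.66, while EPCAM had 2.98 and CDH1 3.50. The 9 acinar markers measured had mean log2 signals between 2.88 (MUC7) and 5.74 (PRR4), with the water channel AQP5 at 4.05, and array medians over all probe sets lay between 4.33 and 4.36. The acinar label was therefore not borne out by these markers at the RNA level. The leukocyte markers PTPRC, CD3D and CD68 were at 3.13, 3.35 and 5.33, and the stromal markers COL1A1, PDGFRB and COL3A1 at 3.85, 5.93 and 9.34. PDGFRB was lower in TNF by 0.30, 0.75 and 0.77 at 2, 6 and 12 h, and COL3A1 by 0.20, 0.13 and 0.23, at unadjusted p-values of 0.002164 and 0.042 (limma, adjusted p = 0.1679 and 0.3385). Their part in the results was not tested. In bulk RNA, fewer cells and less RNA per cell cannot be told apart. NFKBIA, the inhibitor induced by NF-kB, rose by 3.23 ± 0.090 (log2, SE) over 2, 6 and 12 h (limma, adjusted p = 0.001188). Its adjusted p was 0.05533 without the 6 h pair and at most 0.0161 in the other 10 alternatives.

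At 2, 6 and 12 h most subunit genes were slightly lower in TNF-treated than in BSA-treated cells, and the shift was shared by the 5 complexes. The median difference of the 82 genes, TNF minus BSA, was -0.045 at 2 h, -0.15 at 6 h and -0.12 at 12 h on the log2 scale. The same medians over all 18239 genes were -0.021, -0.013 and -0.004. The TNF array was the lower one for 81.7%, 90.2% and 90.2% of the members at these times, against 57.0%, 53.0% and 50.8% of all genes. Of the 82 members, 55 (67.1%) were lower at each of the 3 times, against 22.4% of all genes, and 0 were higher at each. The members were brightly measured, and bright genes also leaned downward. Of the 1554 genes with a mean log2 signal over 9, a comparison added after the data were seen, 32.1% were lower at all 3 times, with medians of -0.024, -0.029 and -0.058.

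No single member passed a test. Over 2, 6 and 12 h, limma with time as a factor called 0 of 82 members at an adjusted p under 0.05, while 0.318% of all genes passed as higher and 0.0493% as lower in TNF. The estimate was negative for 78 of the 82 (95.1%), against 53.5% of all genes and 64.5% of those with a mean log2 signal over 9. Its median was -0.10, which is 6.96% lower on the linear scale, with SEs between 0.069 and 0.11. At an unadjusted p under 0.05, 10 members (12.2%) were lower, against 9.12% of all genes, and 0 were higher. That share is close to the background. For 16 members (19.5%), the TNF arrays of 2, 6 and 12 h all lay below the BSA arrays of those times, against 6.19% of all genes. They comprise 7 genes of complex I, 1 of complex IV (COX7B) and 8 of the ATP synthase. Over 4 times limma also called 0 members, against 0.0164% of all genes as higher and 0.0% as lower, and 4 members (4.88%) were lower at an unadjusted p under 0.05, against 3.39% of all genes.

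**Figure D1:**
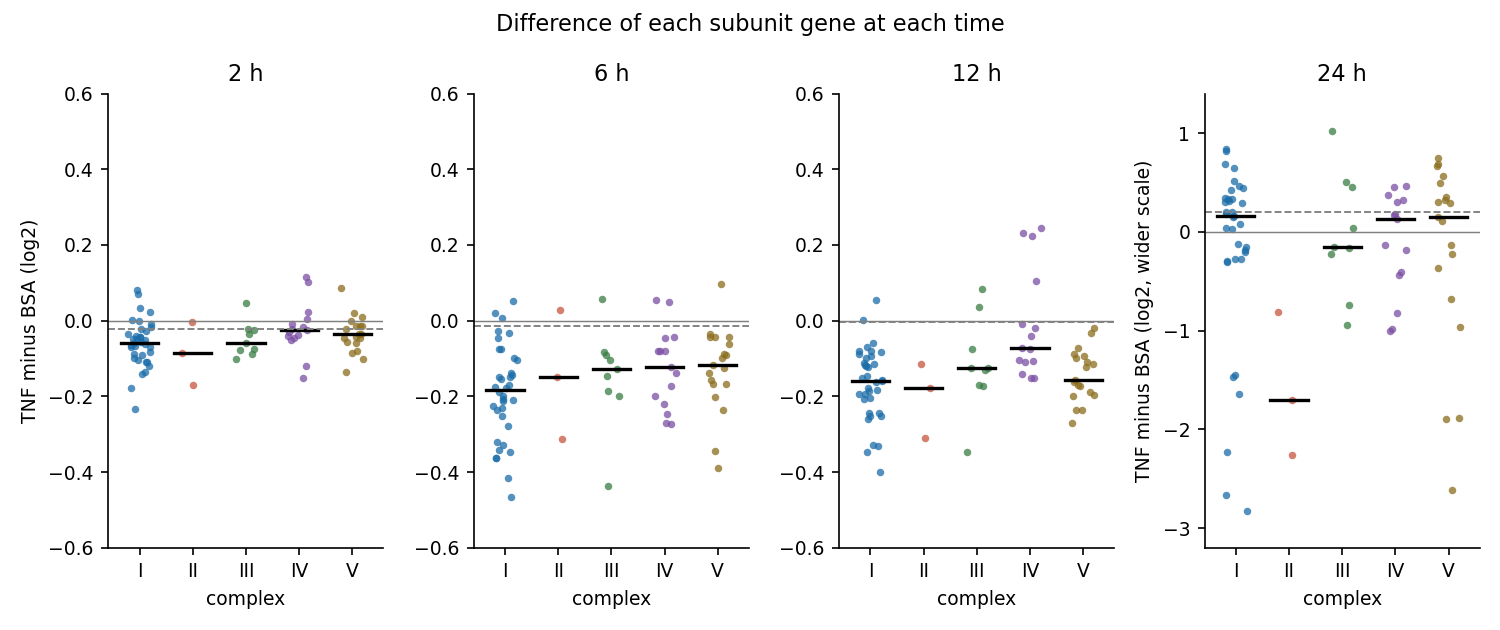
Difference between the TNF array and the BSA array (vertical axis, log2) for each of the 82 subunit genes, by complex (horizontal axis) at 2, 6, 12 and 24 h, with the 24 h panel on a wider scale. Points are genes, black bars the median of a complex and dashed lines the median of all 18239 genes. Complex medians lie between -0.18 and -0.025 at 2, 6 and 12 h, and genes spread from -2.82 to 1.02 at 24 h.

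Complex I, the NADH dehydrogenase, had medians of -0.058, -0.18 and -0.16 at 2, 6 and 12 h. Its estimates over these times were negative for 36 of 36 genes, against 53.5% of all genes. It held 9 of the 10 members with an unadjusted p under 0.05. The smallest p was that of NDUFB10, an accessory subunit of the membrane arm. Its log2 signal in TNF-treated cells was 9.18, 9.42, 9.21 and 8.93 at 2, 6, 12 and 24 h, against 9.41, 9.79, 9.46 and 9.21 in BSA-treated cells. TNF was the lower array at each of the 4 times, although the 2 sets of values overlap. The estimate over 2, 6 and 12 h was -0.28 ± 0.073 (SE), 17.8% lower, with an adjusted p of 0.2288 in limma that does not pass.

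NDUFS7 and NDUFS3 belong to the arm of complex I that carries electrons to ubiquinone. NDUFS7, which binds the last iron-sulfur cluster before ubiquinone, had 8.41, 8.65, 8.16 and 6.88 in TNF-treated cells at 2, 6, 12 and 24 h, against 8.59, 9.12, 8.41 and 8.52 in BSA-treated cells. Its estimate over 2, 6 and 12 h was -0.30 ± 0.086 (limma, adjusted p = 0.2553), the most negative of all members. NDUFS3 had 9.85, 9.84, 9.52 and 9.31 in TNF-treated cells, against 9.94, 10.19, 9.85 and 9.51 in BSA-treated cells. For both genes TNF was lower at each time, with the widest early gap at 6 h.

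The flavoprotein part, where NADH is oxidised, comprises NDUFV1, NDUFV2 and NDUFV3. NDUFV1, which binds the flavin, had 8.17, 8.23, 7.995 and 5.78 in TNF-treated cells, against 8.28, 8.59, 8.199 and 8.01 in BSA-treated cells, and an estimate of -0.23 ± 0.082 over 2, 6 and 12 h. NDUFV3 had an estimate of -0.22 ± 0.078 and NDUFV2, which also carries an iron-sulfur cluster, one of -0.079 ± 0.074. NDUFS8, with further iron-sulfur clusters, had -0.21 ± 0.080. Its other probe set, with a mean log2 signal of 5.40, had differences of 0.071, 0.079 and 0.16 at 2, 6 and 12 h. NDUFS1, the largest subunit, had -0.021, -0.11 and -0.33 as differences at 2, 6 and 12 h. The 6 core subunits measured, most of which carry redox centres, had a median estimate of -0.22, against -0.12 for the 30 accessory subunits. This split was made after the values were seen and was not tested.

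Among accessory subunits, NDUFB5 (-0.24), NDUFA8 (-0.20) and NDUFB11 (-0.19) had the remaining unadjusted p-values under 0.05. NDUFAB1, the acyl carrier protein of mitochondria, had differences of -0.040, -0.19 and -0.089 at 2, 6 and 12 h. NDUFA13 was dim, with signals of 3.34 to 3.56, and differed by at most 0.066 in size at these times. The other accessory subunits had estimates between -0.20 and -0.034.

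Complex II, succinate dehydrogenase, was represented by SDHA, SDHC and SDHD. SDHA, the flavoprotein that oxidises succinate, had 9.64, 9.50, 9.28 and 7.23 in TNF-treated cells at 2, 6, 12 and 24 h, against 9.72, 9.81, 9.59 and 9.49 in BSA-treated cells. The gap was 0.085 at 2 h and 0.31 at both 6 and 12 h. Its estimate was -0.24 ± 0.082 (limma, adjusted p = 0.3078). Another, dim probe set of SDHA was at 3.07 to 3.49 on the 8 arrays. This dim probe set gave 0.11 over the same times (limma, adjusted p = 0.6205). It is the only one of SDHA whose name does not mark probes that may match other sequences. SDHC and SDHD anchor the enzyme in the membrane. SDHC had 8.78, 8.71, 8.62 and 6.32 in TNF-treated cells, against 8.95, 8.86, 8.73 and 8.02 in BSA-treated cells. By this probe set TNF was lower at each time. The 5 probe sets of SDHC ran from -0.17 to 0.30 at 2 h, from -0.16 to -0.012 at 6 h and from -0.18 to 0.31 at 12 h. SDHD had 9.22, 8.87, 8.93 and 8.37 in TNF-treated cells, against 9.22, 8.84, 9.11 and 9.17 in BSA-treated cells. Up to 6 h the arms differed by at most 0.029 in this probe set of SDHD. The 5 probe sets of SDHD ran from -0.15 to -0.003 at 2 h and from 0.029 to 0.33 at 6 h.

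Complex III, which passes electrons from ubiquinol to cytochrome c, had medians of -0.059, -0.13 and -0.13 at 2, 6 and 12 h. Of its estimates 9 of 9 were negative, against 53.5% of all genes. UQCRC1, a core protein, had 9.29, 9.36, 9.17 and 6.78 in TNF-treated cells, against 9.37, 9.80, 9.24 and 7.72 in BSA-treated cells. TNF was lower at each time, by 0.44 at 6 h, and both arms were lower at 24 h than before. Its estimate was -0.20 ± 0.099 (limma, adjusted p = 0.4392). The small subunits UQCRQ and UQCR10 followed. UQCRQ had 10.97, 11.04, 10.84 and 11.05 in TNF-treated cells, against 11.06, 11.19, 10.97 and 11.01 in BSA-treated cells, and TNF was lower up to 12 h. UQCR10 had 11.26, 11.16, 11.04 and 11.05 in TNF-treated cells, against 11.29, 11.28, 11.17 and 11.22 in BSA-treated cells. CYC1, the cytochrome c1 haem protein, had differences of -0.10, -0.20 and 0.037. The other core protein, UQCRC2, had -0.075, 0.057 and -0.17.

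Complex IV, cytochrome c oxidase, had medians of -0.025, -0.12 and -0.073 at 2, 6 and 12 h. Its median estimate of -0.058 was nearer 0 than those of the other complexes (-0.14 to -0.097), and this difference was not tested. That median includes 5 dim isoforms, described below, whose differences cannot be read. Without them, the other 10 subunits had a median of -0.085. COX5A had 10.40, 10.57, 10.39 and 9.73 in TNF-treated cells, against 10.55, 10.71, 10.54 and 10.71 in BSA-treated cells. The gap of COX5A was steady early, at 0.15, 0.14 and 0.15. The estimate was -0.15 ± 0.069 (limma, adjusted p = 0.4119). COX5B, which binds zinc, had 10.31, 10.45, 10.24 and 9.86 in TNF-treated cells, against 10.43, 10.62, 10.35 and 10.27 in BSA-treated cells. COX6B1 had 10.44, 10.48, 10.31 and 8.50 in TNF-treated cells, against 10.45, 10.73, 10.47 and 9.50 in BSA-treated cells. For both, TNF was lower at all 4 times. COX4I1, the common form of a subunit that binds ATP, had -0.052, -0.081 and -0.040. COX7A2L, which helps complexes III and IV to assemble into supercomplexes, had -0.038, -0.22 and -0.076, and COX6C had -0.025, 0.049 and -0.010.

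The 5 isoforms of complex IV known from particular tissues (COX4I2 from lung, COX6A2 and COX7A1 from heart and muscle, COX6B2 and COX7B2 from testis) were dim, with mean log2 signals of 2.82 to 4.40. They had a median estimate of 0.025, while the other 10 subunits had -0.085. Of the 4 members with a positive estimate, COX6A2, COX6B2 and COX7A1 are in this group and COX6C is not. At such signals a difference cannot be read as a change in the gene.

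The ATP synthase had medians of -0.035, -0.12 and -0.16 at 2, 6 and 12 h, with 19 of 19 estimates negative and 19 of 19 genes lower at 12 h. Over all genes these shares were 53.5% and 50.8%. ATP5F1D, a subunit of the rotating stalk, had 7.25, 7.76, 7.46 and 5.59 in TNF-treated cells, against 7.38, 8.15, 7.56 and 6.27 in BSA-treated cells. Its estimate was -0.21 ± 0.088 (limma, adjusted p = 0.3731). ATP5F1B, which holds the catalytic sites, had 11.51, 11.46, 11.32 and 8.98 in TNF-treated cells, against 11.56, 11.57, 11.52 and 10.87 in BSA-treated cells. Up to 12 h its TNF values all lay below its BSA values, with gaps at the same time of 0.047, 0.12 and 0.20. The margin between the arms was small, from a highest TNF value of 11.513 at 2 h to a lowest BSA value of 11.518 at 12 h.

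ATP5F1C, the central shaft, had 10.54, 10.59, 10.41 and 10.84 in TNF-treated cells, against 10.60, 10.72, 10.65 and 10.55 in BSA-treated cells. Up to 12 h its values in the arms did not overlap, but the margin was small. The highest TNF value was 10.589 at 6 h and the lowest BSA value 10.596 at 2 h. ATP5F1A, the other subunit of the catalytic head, had -0.080, -0.087 and -0.16 at 2, 6 and 12 h. Its other probe sets had 0.11, 0.22 and -0.11 at 6 h, and -0.0265, -0.057 and -0.23 at 12 h. The genes of the c ring, which turns with the proton flow (ATP5MC1, ATP5MC2 and ATP5MC3), had a median estimate of -0.14. ATP5MC2 had 10.44, 10.52, 10.30 and 7.66 in TNF-treated cells, against 10.49, 10.69, 10.50 and 10.27 in BSA-treated cells, with TNF lower at each time. The genes of the peripheral stalk (ATP5PB, ATP5PD, ATP5PF and ATP5PO) had a median of -0.070. ATP5IF1, which inhibits the enzyme when it would run backwards, had -0.035, -0.061 and -0.24. ATP5MGL, a dim gene at 4.18 to 4.99, had 0.086, -0.20 and -0.27.

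**Figure D2:**
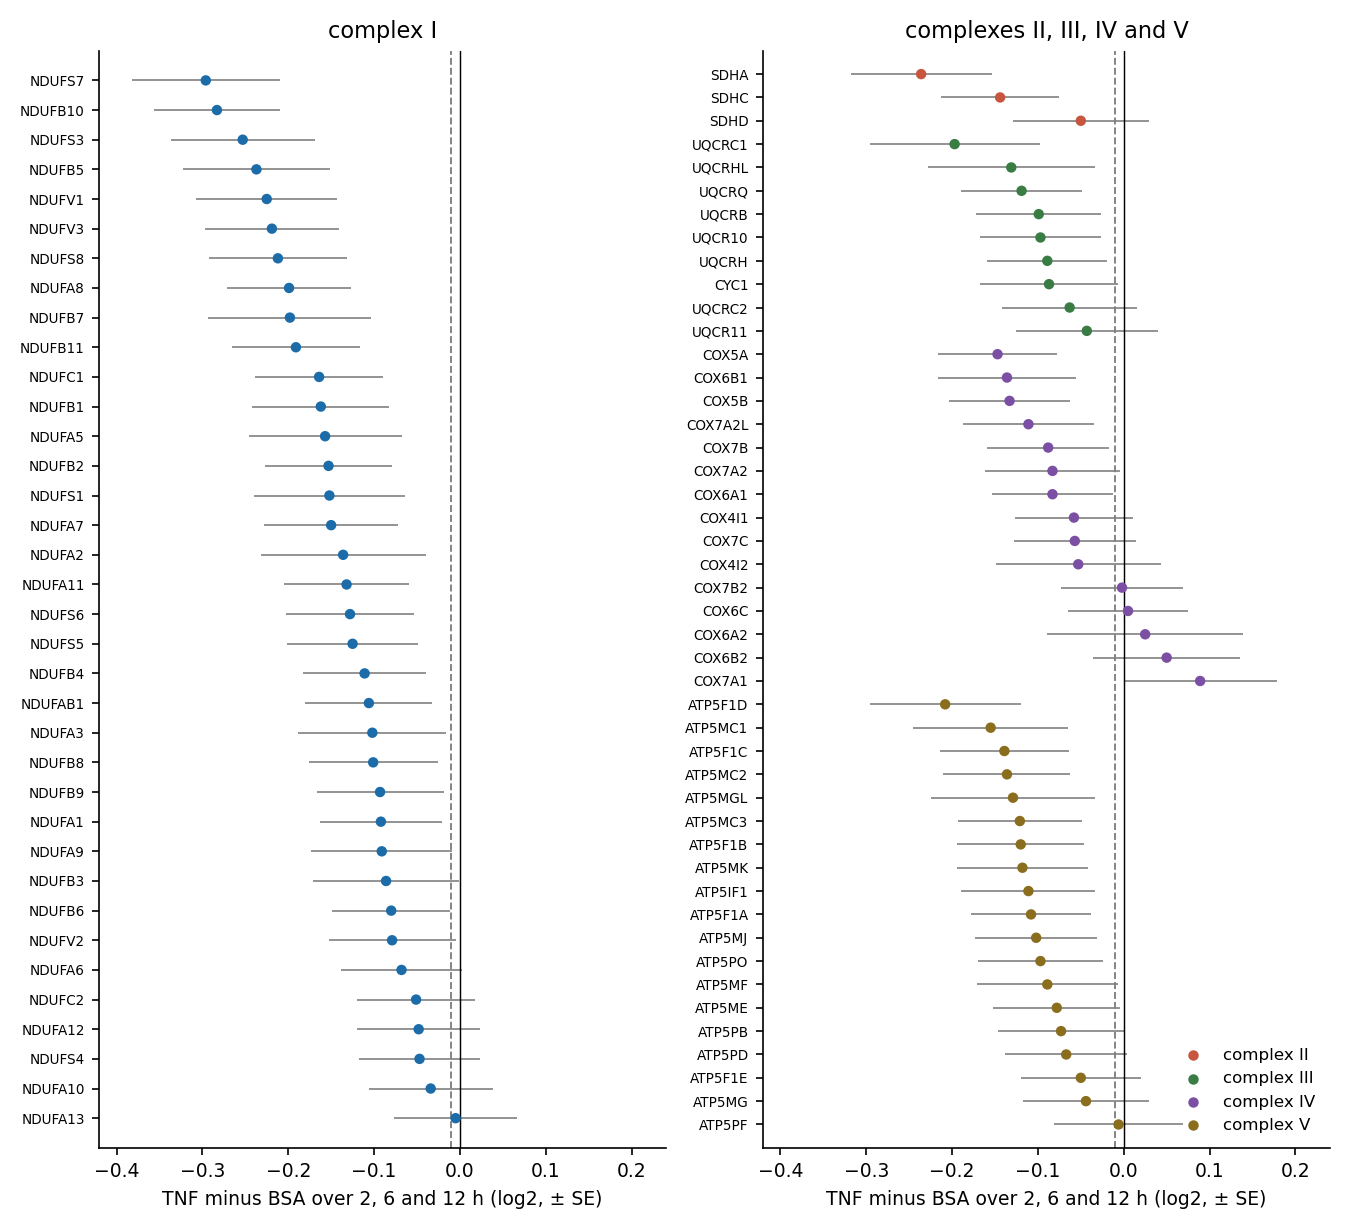
Estimated difference between TNF and BSA over 2, 6 and 12 h (horizontal axis, log2, with SE bars) for the 36 genes of complex I and the 46 genes of the other complexes, each complex in its own colour and ordered by size. The dashed line marks the median of all genes at -0.010, and 78 of 82 points lie below 0.

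No member was 2-fold apart at 2, 6 or 12 h. Over all genes, 0.0439% were at least 2-fold lower and 0.493% at least 2-fold higher in TNF at 2 h. These shares were 0.384% and 1.38% at 6 h and 0.839% and 1.29% at 12 h. The lowest members at 6 h were NDUFS7 (-0.47), UQCRC1 (-0.44) and NDUFB7 (-0.42), and the highest were ATP5PF (0.097), UQCRC2 (0.057) and COX7B2 (0.054). The TNF array therefore held most of its subunit signals within a narrow band below the BSA array.

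The control cells did not stay level. On the BSA array of 6 h, 62 of the 82 members were above the BSA array of 2 h, by a median of 0.12, while the median of all genes was -0.002. ATP5F1D (0.77), NDUFB7 (0.61), NDUFS7 (0.53) and UQCRC1 (0.43) were the highest of these. The BSA array of 6 h enters this drift and the TNF minus BSA difference of 6 h with opposite signs, so the drift and the difference are not independent. Against the BSA array of 2 h, the TNF array of 6 h had a median member difference of -0.021, with 30 of 82 members higher. The TNF array of 12 h was below the BSA array of 2 h by a median of 0.17 and for 76 of 82 members. It was below each of the BSA arrays of 2, 6 and 12 h for 68. The BSA array of 12 h was itself below that of 2 h for 62 of 82 members and for 10216 of all 18239 genes. Its median difference from 2 h was -0.048 for the members and -0.027 for all genes. The counts of 30, 76 and 68 were not taken over all genes, so they have no background share. The part of the BSA drift in the 6 h and 12 h results was not tested.

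**Figure D3:**
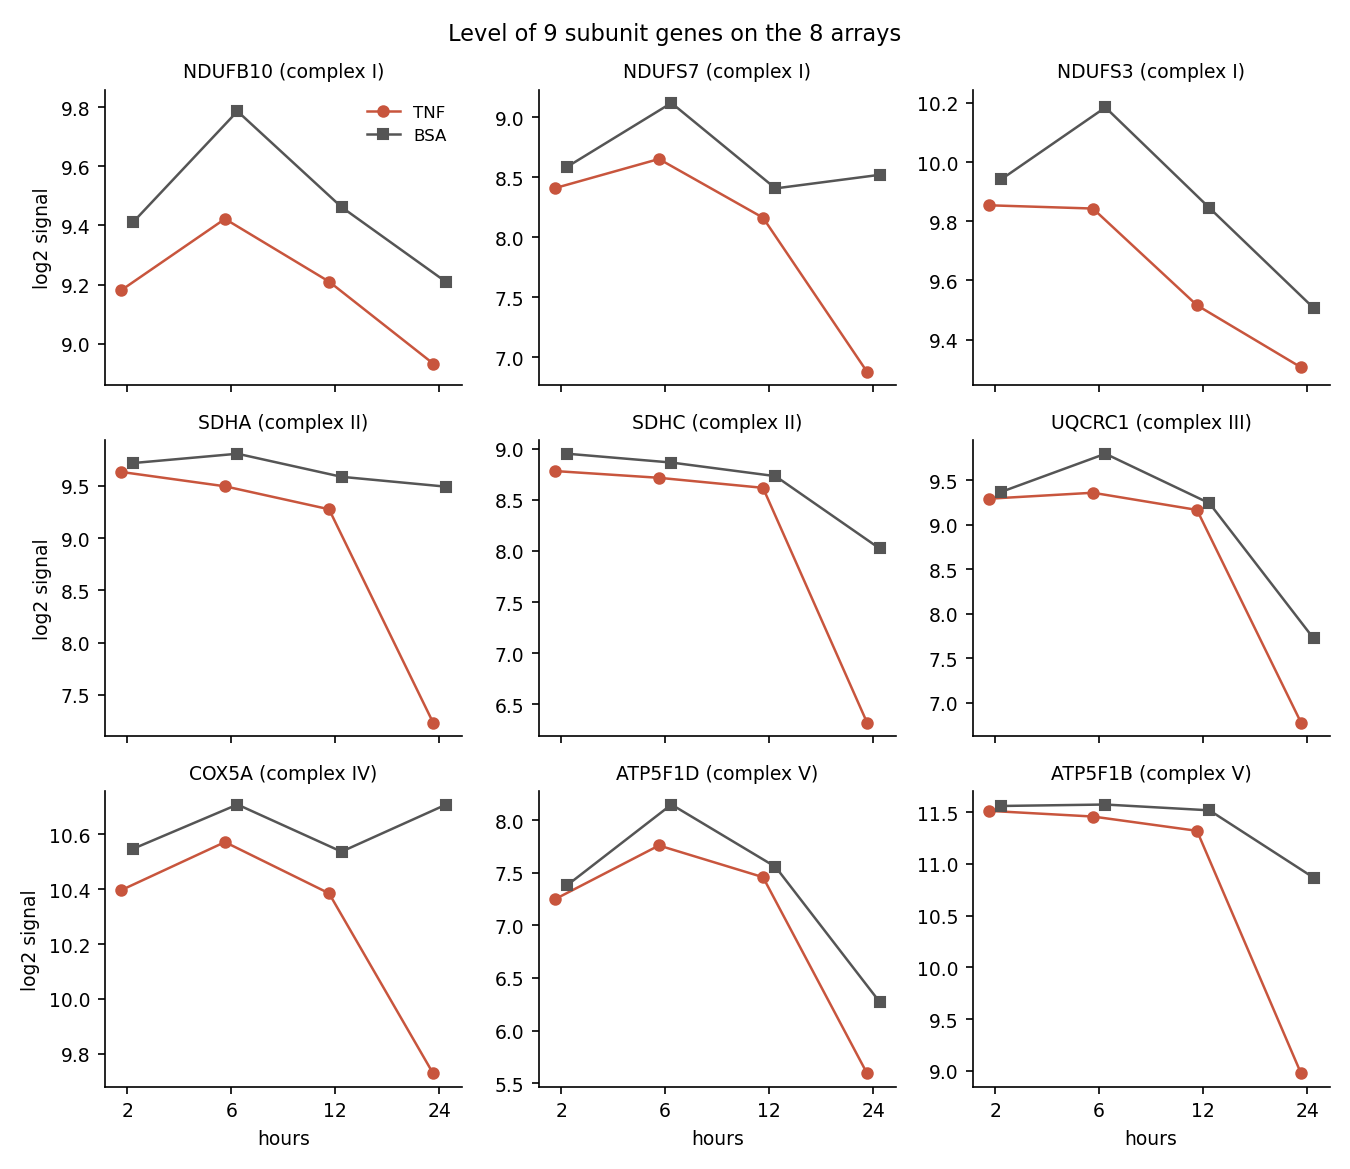
Log2 signal (vertical axis, each panel on its own scale) of 9 subunit genes against time (horizontal axis, 2, 6, 12 and 24 h evenly spaced), for TNF (circles) and BSA (squares), 1 array per point. The BSA line is highest at 6 h in every panel but that of SDHC, and in every panel the lowest TNF value is that of 24 h.

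At 24 h the genes scattered widely. The median member difference was 0.092, against 0.20 over all genes. Measured from the median of all genes, the members' median was -0.11 at 24 h, against -0.024, -0.14 and -0.12 at 2, 6 and 12 h. For the genes with a mean log2 signal over 9 it was -0.097 at 24 h. In all, 45.1% of the members were lower, against 29.0% of all genes. Of the 55 members lower at 2, 6 and 12 h, 29 were lower at 24 h too. At least 2-fold lower were 12 of 82 (14.6%), against 6.67% of all genes, and 1 (1.22%) was at least 2-fold higher, against 6.1%. Among the genes with a mean log2 signal over 9, these shares were 12.0% and 2.77%, and 43.6% were lower, so the members' shares were close to those of bright genes. The lowest were NDUFB7 (-2.82), NDUFA10 (-2.66) and ATP5MC2 (-2.61), and the highest were UQCRHL (1.02), NDUFS5 (0.84) and NDUFB6 (0.82). UQCRHL is a retrogene copy of UQCRH, whose own difference was -0.23, and probes may not keep the copies apart. These gene counts rest on the brightest probe set, chosen with the TNF array of 24 h included. A probe set that was low on that array could thus be passed over. Of all 184 member probe sets, 40 were at least 2-fold lower at 24 h and 2 at least 2-fold higher. The 40 belong to 25 genes, and the share over all probe sets was not computed.

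By complex, the 24 h medians were 0.16 for complex I, -1.70 for complex II, -0.15 for complex III, 0.13 for complex IV and 0.15 for the ATP synthase. Within complex I, NDUFV1 (-2.23), NDUFS7 (-1.64), NDUFC2 (-1.47) and NDUFV2 (-1.45) were more than 2-fold lower, while NDUFS5, NDUFB6 and NDUFB3 (0.69) were higher. Within the ATP synthase, ATP5MC2, ATP5F1B (-1.89) and ATP5MC1 (-1.89) were more than 2-fold lower, and ATP5MF (0.75) and ATP5ME (0.69) were higher. Subunits that sit side by side in 1 enzyme thus had values of opposite sign on this pair of arrays.

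Probe sets of 1 gene disagreed on this pair too. Among 40 members with several probe sets above the median signal of all genes (in the mean of the other 7 arrays), the median spread between the probe sets of a gene was 0.055, 0.079 and 0.081 at 2, 6 and 12 h, and 0.64 at 24 h. It passed 1 on the log2 scale for 15 of the 40 genes at 24 h and for 0 before. ATP5F1A had 4 such probe sets, with 24 h differences of 0.30, -0.72, -4.09 and -4.45. The most negative of them had 4.37 on the TNF array, against 8.83 on the BSA array of 24 h. NDUFV3 ran from 0.96 to -2.63 and SDHC from 1.32 to -1.76. SDHA had -2.26 and -2.33 in its bright probe sets. The 3′ to 5′ gaps of the TNF array of 24 h, given above, go with this disagreement, and their part in it was not tested.

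**Figure D4:**
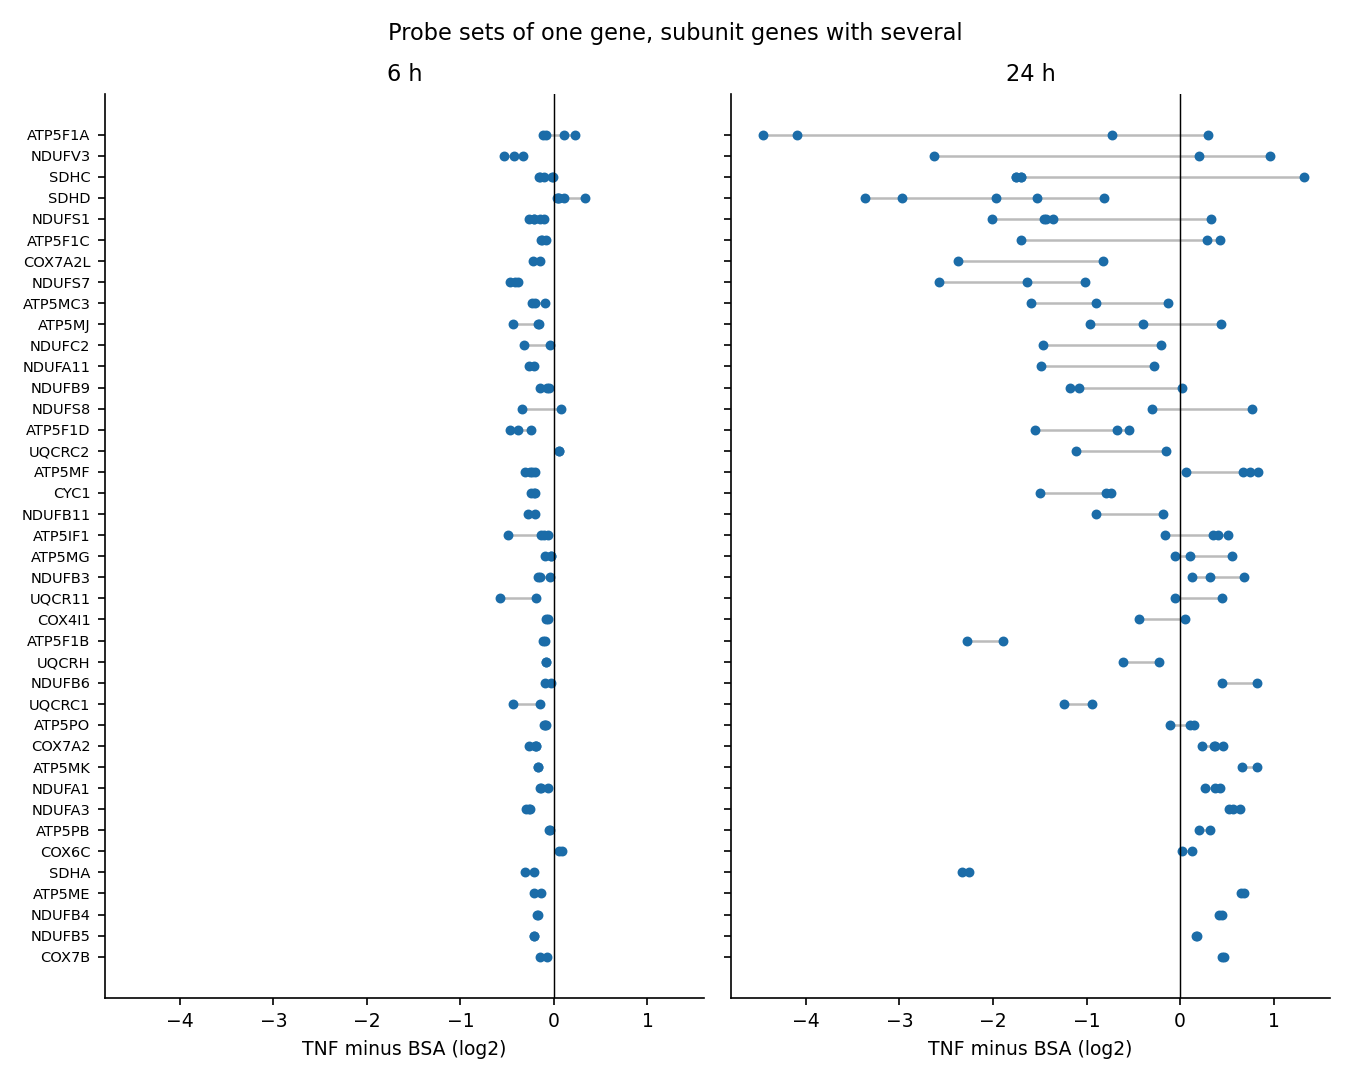
Difference between TNF and BSA (horizontal axis, log2) for each probe set of the 40 subunit genes with at least 2 probe sets above the median signal of all genes, at 6 h and at 24 h on the same scale. Each row is a gene and a grey line joins its probe sets. The widest spread within a gene is 0.44 at 6 h and 4.75 at 24 h.

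The BSA cells also drifted by 24 h. Relative to 2 h, 60 of 82 members were lower on the BSA array of 24 h, with a median of -0.22, against -0.034 over all genes. UQCRC1 (-1.64) and ATP5F1D (-1.11) were at least 2-fold lower, and 1.83% of all genes were. COX6B1 (-0.94), SDHC (-0.93) and NDUFB11 (-0.89) came next. NDUFA10 (0.54), COX7A2L (0.50) and NDUFV3 (0.44) were the highest. The BSA array of 24 h had a GAPDH gap of 0.21, within the range of the arrays before it. Its ACTB gap of 3.47 was above their range of 2.59 to 3.09, and the part of this in the drift was not tested.

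No trend with time passed. A limma fit of treatment, log2 hours and their product called 0 members for a treatment effect that changes with time, with 0 at an unadjusted p under 0.05 and 0.0% of all genes called. The slope with log2 hours in BSA passed for 0 members, likewise with 0 at an unadjusted p under 0.05, and for 0.0% of all genes. The lowest adjusted p among members was 0.8272 for the first and 0.9851 for the second.

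Assembly factors, which build the complexes but are not part of them, were mostly lower in TNF as well. Of 47 measured, 0 passed in limma in either direction over 2, 6 and 12 h, and 5 (10.6%) were lower at an unadjusted p under 0.05, against 9.12% of all genes. Estimates were negative for 43 (91.5%), against 53.5% of all genes, with a median of -0.12. They were lower at each of the 3 times in 53.2%, against 22.4% of all genes. COX10, which makes haem for complex IV, had the smallest p (-0.28 ± 0.072, adjusted p = 0.2288). UQCC3 (-0.33), FOXRED1 (-0.25) and SDHAF3 (-0.24) followed. LRPPRC, which keeps mitochondrial messenger RNAs stable, had 0.023, 0.23 and -0.050 at 2, 6 and 12 h.

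Of the subunits outside the symbol rule, COX8A of complex IV had -0.013, -0.18 and -0.19 at 2, 6 and 12 h and -1.84 at 24 h. CYCS, the carrier between complexes III and IV, had 0.017, 0.041 and -0.17. The 77 genes of the mitochondrial ribosome, which translates the subunits encoded in mitochondrial DNA, had medians of -0.045, -0.21 and -0.056, and 54.5% were lower at all 3 times. The 72 genes of the cytosolic ribosome had -0.005, -0.033 and -0.039, and 31.9% were. Estimates over 2, 6 and 12 h were negative for 89.6% of the mitochondrial and 80.6% of the cytosolic list, against 53.5% of all genes. In both lists 0 genes passed in limma over 2, 6 and 12 h, with 11 (14.3%) and 0 genes at an unadjusted p under 0.05 in either direction, against 14% of all genes.

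COXFA4L3 was higher in TNF at every time. It encodes a paralogue of the complex IV protein COXFA4 and is known to be induced by inflammatory signals and to take the place of COXFA4 in the complex. COXFA4L3 had a log2 signal of 4.47, 7.21, 7.18 and 6.76 in TNF-treated cells at 2, 6, 12 and 24 h, against 3.25, 3.56, 3.28 and 3.75 in BSA-treated cells. Every TNF value lay above every BSA value, and the gap was 1.22 at 2 h and 3.66, 3.90 and 3.01 at 6, 12 and 24 h. Because the gap grew, the estimate over 2, 6 and 12 h, 2.93 ± 0.51, had an adjusted p of 0.1479 in limma. Without the 2 h pair, with 1 residual degree of freedom, it was 3.78 with an adjusted p of 1.665e-06. That fit also called far more of all genes than the reported one, as counted below. The other 10 alternatives gave adjusted p-values of 0.1257 to 0.7223. COXFA4 had 11.73, 11.76, 11.67 and 11.91 in TNF-treated cells, against 11.83, 11.85, 11.76 and 11.85 in BSA-treated cells. It was lower in TNF by 0.10, 0.093 and 0.090 at the first 3 times. COXFA4L2 was dim, with a mean of 3.37.

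Genes that set mitochondrial content did not share 1 direction. Of 15 regulators of mitochondrial biogenesis, 0 passed in limma over 2, 6 and 12 h. An unadjusted p under 0.05 was found for 6 (40.0%), against 14% of all genes, and 8 estimates (53.3%) were negative, against 53.5%. Earlier results of these data were known when the list was chosen, so the 40.0% cannot be read as an enrichment. PPARGC1A, the coactivator that drives mitochondrial biogenesis, had 7.53, 6.07, 5.99 and 6.78 in TNF-treated cells at 2, 6, 12 and 24 h, against 8.04, 7.98, 8.16 and 7.70 in BSA-treated cells. Each TNF value lay below each BSA value, and the gaps were 0.51, 1.90, 2.17 and 0.92. Its second probe set had -0.87, -2.72, -2.34 and -2.66. The estimate over 2, 6 and 12 h was -1.53 ± 0.31 (limma, adjusted p = 0.183). Without the 2 h pair it was -2.04, with an adjusted p of 3.137e-05 against 0.1091 to 0.7223 in the other 10 alternatives. With that pair left out, 1 residual degree of freedom remains and far more of all genes were called, as counted below.

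The transcription factors that act on the subunit promoters differed less. NRF1 had 0.009, -0.30 and -0.25 at 2, 6 and 12 h, GABPA -0.19, 0.17 and -0.52, YY1 -0.021, 0.16 and 0.093, and ESRRA, a nuclear receptor partner of PPARGC1A, -0.15, -0.32 and -0.38. TFAM, which packages mitochondrial DNA and helps to start its transcription, had 0.12, -0.039 and -0.096. MYC was higher by 0.33, 0.40 and 0.42 (estimate 0.38 ± 0.071, limma, adjusted p = 0.1631), and HIF1A had -0.089, 0.27 and -0.002.

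Mitochondrial genes linked to inflammation included the largest differences beside the chain. Of 12 measured, 0 passed in limma over 2, 6 and 12 h and 7 (58.3%) had an unadjusted p under 0.05, against 14% of all genes. The list was chosen with earlier results of these data known, so this share cannot be read as an enrichment. SOD2, the superoxide dismutase of the matrix and a known NF-kB target, had 7.48, 9.83, 10.69 and 7.79 in TNF-treated cells, against 6.88, 6.92, 7.08 and 5.97 in BSA-treated cells. Every TNF value of SOD2 lay above every BSA value, with an estimate of 2.37 ± 0.54 (adjusted p = 0.2077). CMPK2, a nucleotide kinase of mitochondria induced by interferon, had 3.70, 6.15, 7.25 and 7.56, against 3.64, 3.97, 3.87 and 3.96. Its 2 other probe sets were dim and differed by at most 0.75. UCP2, an uncoupling protein homologue of the inner membrane, had 8.45, 8.51, 7.98 and 7.13 in TNF-treated cells, against 8.63, 9.26, 8.70 and 7.64 in BSA-treated cells. Without the 2 h pair SOD2 (3.26, adjusted p = 1.122e-05), CMPK2 (2.78, 0.0002843) and UCP2 (-0.73, 0.006258) passed in limma. Over the other 10 alternatives their lowest adjusted p-values were 0.1836, 0.2414 and 0.123. The fit without the 2 h pair leaves 1 residual degree of freedom and called far more of all genes than the reported fit, as counted below.

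**Figure D5:**
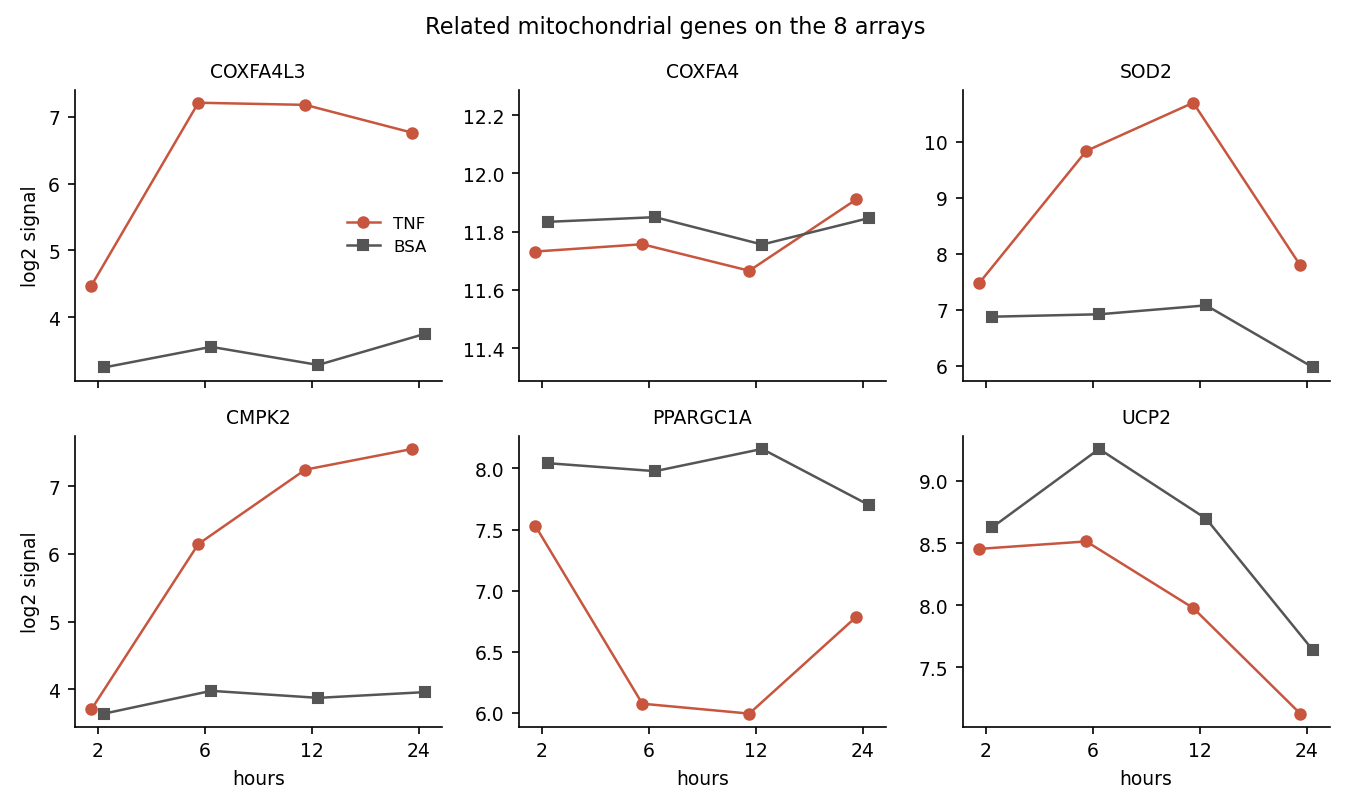
Log2 signal (vertical axis, each panel on its own scale) of 6 genes related to the respiratory chain against time (horizontal axis, 2, 6, 12 and 24 h evenly spaced), for TNF (circles) and BSA (squares), 1 array per point. COXFA4L3 reaches 7.21 in TNF against 3.56 in BSA at 6 h, COXFA4 stays between 11.67 and 11.91, and PPARGC1A is 5.99 in TNF against 8.16 in BSA at 12 h.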

How the data were processed

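Total RNA (10 ng per array, 3′ in vitro transcription labelling, per the labels' protocols) was measured on 8 arrays. The deposited values are log2 signals, 1 per probe set and array. RMA is named in the submitters' processing notes, without its settings. No array column without a sample was used.

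The 49386 probe sets were named with the platform annotation, and the 1327 with several symbols were left out, 10 of which name a member. All 82 member symbols equal the RefSeq symbol of their gene identifier. A gene was represented by its brightest probe set, judged by the average of all 8 arrays. Any member could be named. Values on all arrays are given for the 3 members of each complex with the smallest p over 2, 6 and 12 h, since none passed, and for members fixed by role. Of the related lists, genes past the threshold and at most 4 with the smallest p, plus a few fixed genes, could be named. Members, lists and subgroups were chosen with earlier results of these data known.

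Linear models with time as a factor were fitted in limma (version 3.58.1, run under R 4.3.3) with moderated two-sided tests, and Benjamini-Hochberg adjustment ran over 18239 genes. The fit has 3 residual degrees of freedom over 4 times and 2 over 2, 6 and 12 h. With treatment, log2 hours and their product it has 4. Single times were counted past 2-fold without a test. The fits were tested on simulated data. Precision is limited by 1 array per treatment and time. Alternatives were the mean of a gene's probe sets, unshared probe sets, all probe sets, another quantile step, centring on array medians, leaving out the dimmest 25% of genes, array weights, a trended robust eBayes step, no time factor, looser thresholds and leaving out each time.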

Additional observations from a re-analysis of the deposited data

Results flagged for a closer look

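The median difference of the 82 subunit genes between TNF and BSA was 0.092 at 24 h, while it was -0.045, -0.15 and -0.12 at 2, 6 and 12 h. It is given here because the sign at 24 h is opposite to that at the earlier times. Each time has 1 array per treatment and the difference between times was not tested. The 24 h median of all genes was 0.20.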

How the results depend on the processing

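No member passed at an adjusted p under 0.05 in any of the fits tried, over 4 times, over 2, 6 and 12 h, for treatment by time or for the BSA slope, nor at an adjusted p under 0.10 in the first 2. Over 2, 6 and 12 h, members with an unadjusted p under 0.05 numbered 10 in the reported fit and 0 without the 6 h pair, 2 without the 12 h pair, 7 without the 2 h pair, 1 without the time factor and 22 with a trended robust eBayes step. The genes called over all were 67, against 0 without the 6 h pair and 1094 without the 2 h pair, where 1 residual degree of freedom is left. The member medians at 2, 6 and 12 h stayed below 0 in all 5 alternatives run. With arrays centred on their medians the 2 h median was -0.020, against -0.045, and 44 members in place of 55 were lower at all 3 times. The 24 h median of 0.092 became -0.003 with the mean of a gene's probe sets, 0.003 after another quantile step and 0.007 with arrays centred on their medians. The 12 members at least 2-fold lower at 24 h became 19 past 1.5-fold (11.7% of all genes), and the 1 at least 2-fold higher became 8 (17.7%). UQCRHL dropped out, leaving 0 higher, after the quantile step (4.9% of all genes) and after centring (4.99%). With unshared probe sets, whose names mark neither sharing nor matches to other sequences, SDHA was represented by its dim probe set. Its estimate turned to 0.11 over 2, 6 and 12 h and to 0.19 over 4 times. NFKBIA over 4 times had an adjusted p of 0.003649, and of 0.07984, 0.0845 and 0.1173 without the 2, 6 and 12 h pair. The arrays give no counts, so no depth limit applies, and members near array background carry no readable difference.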

Other observations

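The citric acid cycle, which supplies the chain with NADH and succinate, was mostly lower in TNF-treated cells up to 12 h, and 0 genes passed in limma, with 2 (16.7%) at an unadjusted p under 0.05 in either direction, against 14% of all genes. Of 12 genes measured, 11 (91.7%) had negative estimates over 2, 6 and 12 h, with a median of -0.15, against 53.5% of all genes, and 7 (58.3%) were lower at each of these times, against 22.4%. IDH2, the NADP-dependent isocitrate dehydrogenase of the matrix, had -0.13, -0.35 and -0.37 at 2, 6 and 12 h (estimate -0.28 ± 0.083, limma, adjusted p = 0.2618). SUCLG1, a subunit of succinyl-CoA ligase, had -0.13, -0.28 and -0.32. CS, citrate synthase, had -0.034, -0.14 and 0.024.

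Of 21 genes of glycolysis and its control, 0 passed in limma over 2, 6 and 12 h, 3 (14.3%) had an unadjusted p under 0.05, against 14% of all genes, and 17 estimates (81.0%) were negative, against 53.5%, with a median of -0.068. PDK4, a kinase that holds back pyruvate dehydrogenase and so the entry of pyruvate into the cycle, had -0.70, -0.78 and -1.35 at 2, 6 and 12 h (estimate -0.94 ± 0.14, limma, adjusted p = 0.1001). Its mean log2 signal was 4.53. PFKM, the muscle form of phosphofructokinase, had -0.17, -0.39 and -0.86, and SLC2A1, the glucose carrier GLUT1, had -0.27, -0.75 and -0.092.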
